A study of Mus musculus with 4 samples.

Results

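The integrin and laminin genes of the mouse were followed across 4 single-cell RNA libraries of muscle stem cells and their cultured descendants. Members were taken by symbol: every gene whose name is Itga or Itgb followed by a subunit designation, or Lama, Lamb or Lamc followed by a number. This rule, which uses no expression value, matched 39 of 25804 gene symbols. They comprised 18 integrin alpha genes, 9 integrin beta genes, 11 laminin genes and Itgb3bp, which encodes a centromere protein and is not an integrin.

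Integrins are surface receptors built from one alpha and one beta subunit, and the pair decides which matrix protein or counter-receptor is bound. Laminins are trimers of an alpha, a beta and a gamma chain, and are the main adhesive proteins of the basement membrane that encloses each muscle fibre and the satellite cells beside it. In muscle the product of Itga7 pairs with that of Itgb1 to bind laminin made with the Lama2 chain, and loss of Lama2 or Itga7 causes congenital muscle disease.

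Every library came from Pax7-nGFP mice, whose nuclear GFP reports the satellite cell gene Pax7, and the stated aim was to compare muscle stem cells in vivo and in vitro. MPC (myogenic progenitor cells) were grown as myoblasts for 2 passages and then for 5 passages in a serum-containing medium with basic FGF, Forskolin (5 µM), Repsox (5 µM) and CHIR9901 (3 µM). Myoblasts were collected at passage 2 from a different serum-containing medium that also held basic FGF and none of the 3 compounds. Myoblasts and the parental cells of the MPC were each taken from a male aged 16 weeks, and whether it was the same animal is not given in the sources used here. ASC (activated satellite cells) were GFP+ cells sorted from 17 tibialis anterior muscles of male and female mice aged 18 to 24 weeks, pooled 3 days after injection of cardiotoxin (10 µM), a toxin that kills muscle fibres. The fiSC (freshly isolated satellite cells) were GFP+ cells sorted from limb muscles pooled from 3 male mice aged 13 weeks. Sorted cells were released with collagenase, whereas MPC and myoblasts were released with trypsin and not sorted. Each group was 1 library, so group, animals, sex, muscle, release method and library cannot be told apart, and no test or p-value is given.

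After filtering, 9096 MPC, 2365 myoblast, 6446 ASC and 2192 fiSC cells remained, with median depths of 13236, 22911, 19810.5 and 8769 UMIs (unique molecular identifiers, each counting 1 captured molecule). Clusters named by satellite cell and myoblast markers held 7183 of the MPC cells (79.0%), 2056 of the myoblasts (86.9%), 2658 of the ASC cells (41.2%) and 2135 of the fiSC cells (97.4%). These myogenic cells were used below, and their UMIs were summed per gene and scaled to a total of 1000000 UMIs, giving CPM. Left out were 1500 MPC cells of clusters 2 and 7, although each cluster held 8 of 10 such markers at 20 CPM. Pax7 was 942 CPM in cluster 2 and 1142 CPM in cluster 7. Both stayed unnamed because their leading genes held more markers of another class. The ASC sort was for GFP, yet 3029 of its cells (47.0%) lay in macrophage-like clusters, in which none of the 10 satellite cell and myoblast markers reached 20 CPM. No macrophage-like cluster was found in the other libraries, and the share is of cells that passed the GFP sort and the cell filter. The MPC and myoblast libraries shared 164 cell barcodes, of 11847 and 2993 before filtering, and the other pairs of libraries between 4 and 27.

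A member was called higher or lower where the ratio of CPM + 5 was at least 2-fold and the higher level was at least 10 CPM. Folds printed are plain CPM ratios with exact 95% intervals that cover counting error only. Because the 3′ chemistry counts each molecule once, levels were not divided by gene length, and splice forms of Itga6, Itga7 or Itgb1 could not be separated. By this minimum 25 members reached 10 CPM in the myogenic cells of at least 1 library: 17 in MPC, 17 in myoblasts, 11 in ASC and 15 in fiSC. The 39 members together summed to 1586.9 CPM in MPC, 1906.7 in myoblasts, 752.26 in ASC and 1848.5 in fiSC, so ASC held the least integrin and laminin RNA relative to total RNA.

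**Figure D1:**
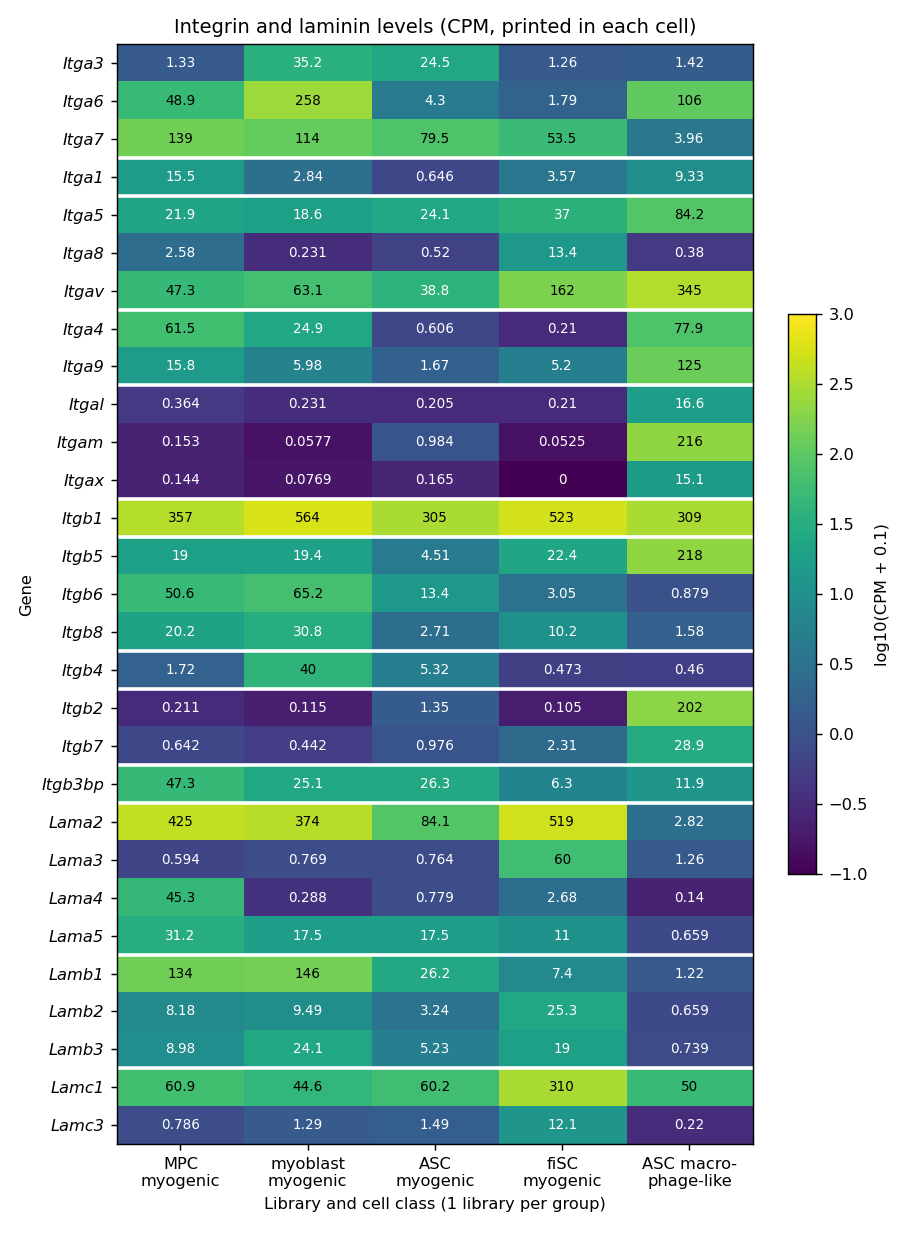
Levels of members that reached 10 CPM anywhere, in the myogenic cells of MPC, myoblast, ASC and fiSC libraries and in the macrophage-like cells of the ASC library. Colour is log10 of CPM + 0.1, and white lines separate the roles; Itgb1 is high in every column, whereas the laminin alpha chains are low in the macrophage-like cells.

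Among the laminin-binding alpha integrins, Itga7, the alpha subunit of the main laminin receptor of muscle, was present in every library. Its level was 139 CPM in MPC, 114 in myoblasts, 79.5 in ASC and 53.5 in fiSC. Both cultures stood above fiSC, MPC by 2.59-fold (95% interval 2.43 to 2.77) and myoblasts by 2.14-fold (2.00 to 2.29). The myoblast value lies near the 2-fold limit, and its call ended under 7 of 14 processing alternatives. ASC stood 1.49-fold above fiSC, which was not a call.

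Itga6, which pairs with Itgb1 or Itgb4 to bind laminin, had a different order, with 48.9 CPM in MPC, 258 in myoblasts, 4.30 in ASC and 1.79 in fiSC. It was 5.28-fold lower in MPC than in myoblasts (5.11 to 5.45), and in both cultures it was well above fiSC, 27.4-fold in MPC (19.6 to 39.6) and 144-fold in myoblasts (103 to 209). Itga3, whose product binds the laminins of epithelial basement membranes, had 1.33 CPM in MPC, 35.2 in myoblasts, 24.5 in ASC and 1.26 in fiSC. The high libraries for Itga3 were therefore myoblasts and ASC, and MPC stood 26.4-fold below myoblasts (22.2 to 31.6) at a level close to that of fiSC. ASC exceeded fiSC by 19.4-fold (13.0 to 30.4).

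The beta partners behaved differently from each other. Itgb1, the common partner of the laminin, collagen and fibronectin receptors, was the most abundant integrin in the myogenic cells of each library, at 357 CPM in MPC, 564 in myoblasts, 305 in ASC and 523 in fiSC. Those levels lie within 2-fold of each other, and Itgb1 was called in none of the 7 comparisons made here. Itgb4, which pairs with Itga6 alone and anchors epithelial cells at hemidesmosomes, had 1.72 CPM in MPC, 40.0 in myoblasts, 5.32 in ASC and 0.473 in fiSC. It was 23.3-fold lower in MPC than in myoblasts (20.0 to 27.3) and 84.5-fold higher in myoblasts than in fiSC (44.4 to 185). Myoblasts thus held the highest RNA level of Itga3, Itga6 and Itgb4 among the myogenic cells of the 4 libraries.

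The collagen receptor subunit Itga1 was highest in MPC, with 15.5 CPM, against 2.84 in myoblasts, 0.646 in ASC and 3.57 in fiSC. The MPC level was 5.45-fold that of myoblasts (4.60 to 6.49) and 4.34-fold that of fiSC (3.40 to 5.62). Those calls ended under 3 and 5 of 15 alternatives.

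Receptors of the RGD motif, a short peptide found in fibronectin, vitronectin and the latent form of TGF-beta, were led by Itgav. It had 47.3 CPM in MPC, 63.1 in myoblasts, 38.8 in ASC and 162 in fiSC. All of MPC (3.42-fold, 3.27 to 3.58), myoblasts (2.56-fold, 2.44 to 2.69) and ASC (4.18-fold, 3.99 to 4.37) stood below fiSC, and the ASC call ended when all retained cells entered. Itga8, another RGD receptor subunit, had the same high library, with 2.58 CPM in MPC, 0.231 in myoblasts, 0.520 in ASC and 13.4 in fiSC. Itga5, the fibronectin receptor subunit, was called in none of the comparisons among libraries, at 21.9, 18.6, 24.1 and 37.0 CPM in MPC, myoblasts, ASC and fiSC.

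The beta subunits that pair with Itgav did not share its order. Itgb6, whose dimer with Itgav activates latent TGF-beta, had 50.6 CPM in MPC, 65.2 in myoblasts, 13.4 in ASC and 3.05 in fiSC. It was 16.6-fold higher in MPC (12.8 to 21.9), 21.4-fold higher in myoblasts (16.5 to 28.2) and 4.42-fold higher in ASC (3.40 to 5.84) than in fiSC. The MPC call ended when progenitor-like cells alone were compared, and the ASC call when all retained cells entered. Itgb8, the other beta subunit known for activating latent TGF-beta, had 20.2 CPM in MPC, 30.8 in myoblasts, 2.71 in ASC and 10.2 in fiSC, and was called between myoblasts and fiSC (3.01-fold higher, 2.59 to 3.51). Itgb5, a vitronectin receptor subunit, had 19.0 CPM in MPC, 19.5 in myoblasts, 4.51 in ASC and 22.4 in fiSC, and ASC was the low library, 4.97-fold below fiSC (4.37 to 5.64). Itgb3 stayed below the 10 CPM minimum in the myogenic cells of each library.

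Itga4, whose product binds VCAM1 and fibronectin, was, among myogenic cells, far higher in the cultures, at 61.5 CPM in MPC, 24.9 in myoblasts, 0.606 in ASC and 0.210 in fiSC. The fiSC level rests on 4 UMIs, and MPC stood 2.47-fold above myoblasts (2.32 to 2.62). That call ended under 2 alternatives, thinning of each cell to 2000 UMIs and the strict cell filter. Itga4 was also called higher in myoblasts than in fiSC, and lost that call at a minimum of 50 CPM and in progenitor-like cells alone. Vcam1, the gene of its ligand, ran the other way, with 18.6 CPM in MPC, 51.1 in myoblasts, 118 in ASC and 650 in fiSC. Itga9, the close relative of Itga4, had 15.8 CPM in MPC, 5.98 in myoblasts, 1.67 in ASC and 5.20 in fiSC, and its MPC call against fiSC (3.05-fold) ended under 11 of 15 alternatives. The leukocyte alpha genes summed to between 0.998 CPM in fiSC and 10.7 CPM in ASC.

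Among the laminin alpha chains, Lama2, the chain of the muscle fibre basement membrane, was the most abundant member in MPC and the second in myoblasts, ASC and fiSC. It had 425 CPM in MPC, 374 in myoblasts, 84.1 in ASC and 519 in fiSC. ASC was the low library, 6.18-fold below fiSC (6.01 to 6.35). Lama5, a broadly made alpha chain, had 31.2 CPM in MPC, 17.5 in myoblasts, 17.5 in ASC and 11.03 in fiSC.

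Lama4 and Lama3 were each high in 1 library. Lama4, the alpha chain of vessel and nerve basement membranes, had 45.3 CPM in MPC, 0.288 in myoblasts, 0.779 in ASC and 2.68 in fiSC. MPC exceeded myoblasts by 157-fold (95.1 to 281) and fiSC by 16.9-fold (12.8 to 22.7). Fibroblast markers summed to 364.4 CPM in these MPC and 209.97 CPM in these myoblasts, and their part in the difference was not tested. Lama4 was 64.4 and 75.3 CPM in the 2 progenitor-like MPC clusters. It was far lower in the unnamed MPC cluster led by Cdkn2a, which was left out here and is described at the end. Lama3 had 0.594 CPM in MPC, 0.769 in myoblasts, 0.764 in ASC and 60.03 in fiSC, so that MPC stood 101-fold (78.2 to 133), myoblasts 78.1-fold (57.0 to 110) and ASC 78.6-fold (63.8 to 97.7) below fiSC. Lama3, an alpha chain best known from epithelial basement membranes, was thus above 10 CPM in fiSC and in no other library.

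Of the beta chains, Lamb1, which joins Lama2 in the laminin of developing and regenerating as well as adult muscle, was high in the cultures, with 134 CPM in MPC and 146 in myoblasts, against 26.2 in ASC and 7.40 in fiSC. Each of the other libraries exceeded fiSC, MPC by 18.2-fold (15.4 to 21.6), myoblasts by 19.7-fold (16.7 to 23.5) and ASC by 3.54-fold (2.99 to 4.22). The Lamb1 call in ASC ended under 3 of 14 alternatives (a minimum of 50 CPM, a resolution of 0.2 and all retained cells), with a log2 ratio down to 0.56. Lamb2, the beta chain of synaptic basement membrane, was opposite to Lamb1, with 8.18 CPM in MPC, 9.49 in myoblasts, 3.24 in ASC and 25.3 in fiSC. It was 3.09-fold lower in MPC, 2.66-fold lower in myoblasts and 7.79-fold lower in ASC than in fiSC. Lamb3 had 8.98 CPM in MPC, 24.1 in myoblasts, 5.23 in ASC and 19.0 in fiSC.

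The gamma chain genes Lamc1 and Lamc3 were both highest in fiSC. Lamc1, the gamma chain of most laminins, had 60.9 CPM in MPC, 44.6 in myoblasts, 60.2 in ASC and 309.5 in fiSC. The deficit against fiSC was 5.08-fold in MPC (4.91 to 5.27), 6.94-fold in myoblasts (6.61 to 7.28) and 5.14-fold in ASC (4.97 to 5.32). Lamc3 had 0.786 CPM in MPC, 1.29 in myoblasts, 1.49 in ASC and 12.1 in fiSC.

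Itgb3bp, the centromere protein gene matched by the rule, had 47.3 CPM in MPC, 25.1 in myoblasts, 26.3 in ASC and 6.30 in fiSC. It was higher than in fiSC in all 3, with a 95% interval of the fold of 6.26 to 9.07 in MPC, and 3.99-fold in myoblasts and 4.17-fold in ASC. Another 9 members stayed below 10 CPM in the summed myogenic cells of each library and in the ASC macrophage-like cells. Their highest level in any of these was 9.18 CPM for Itgae and 4.14 CPM for Itga11, and between 0.00958 and 3.84 CPM for Itga10, Itga2, Itga2b, Itgad, Itgb2l, Itgb3 and Lama1. Within the myogenic cells Itga2b reached 11.6 CPM in the differentiation-like myoblasts, and 33.3 CPM from 7 UMIs in a differentiation-like MPC cluster of 114 cells.

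In the MPC against myoblast comparison 20 members reached 10 CPM on at least 1 side, and 3 were higher and 4 lower. Over all genes measured, 6.46% were called higher and 7.42% lower, and the median log2 ratio was 0.08 over the members and 0.04 over all genes. The higher members were Itga1, Itga4 and Lama4, and the lower ones Itga3, Itga6, Itgb4 and Lamb3 (2.68-fold, 2.46 to 2.92). The Lamb3 call ended under 3 of 15 alternatives. Itga7 (1.21-fold), Lama2 (1.14-fold) and Lamb1 (0.921-fold) lay near equality. Differentiation-like clusters, defined below, held 26.7% of retained MPC and 13.6% of retained myoblasts, so the progenitor-like cells were also compared alone. Of 20 members 4 were then higher and 5 lower, against 7.64% of all genes higher and 8.51% lower, with Itga9 and Itgb6 added. Itgb6 was 10.9 CPM in MPC and 35.3 CPM in myoblasts, 3.24-fold lower in MPC and past the rule, and Itga4 was 29.5 CPM in MPC and 5.57 CPM in myoblasts, 5.29-fold higher.

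The comparison of ASC with fiSC measured 19 members, of which 4 were higher and 10 lower. The background was 24.2% of all genes higher and 23.6% lower, and the median log2 ratio was −1.23 over the members and 0.03 over all genes. Of the 9 measured laminin genes 7 were lower and 1 higher, with a median of −1.88. Among the lower genes were Lama2, Lama3, Lamb2, Lamb3 (3.63-fold, 3.18 to 4.13), Lamc1 and Lamc3 (8.15-fold, 6.70 to 9.93), and Lamb1 was the one that was higher. Of the 9 measured integrin genes 2 were higher (Itga3, Itgb6) and 3 lower (Itga8, Itgav, Itgb5). Macrophage markers summed to 927.19 CPM in ASC myogenic cells and 32.402 CPM in fiSC, with 3 of 14 in ASC and 1 of 14 in fiSC at 20 CPM. Lgals3 alone was 725 CPM in ASC and 22.6 CPM in fiSC. Their part in the difference was not tested, and Itga3, Itgb6, Lamb1 and Itgb3bp had lower levels in the ASC macrophage-like cells than in the ASC myogenic cells. When all retained cells entered, macrophage-like ones included, 8 of 23 members were higher and 9 lower, against 24.6% of all genes higher and 21.1% lower. Itgb5 was then higher in ASC, at 64.8 CPM, against 24.8 CPM in fiSC.

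**Figure D2:**
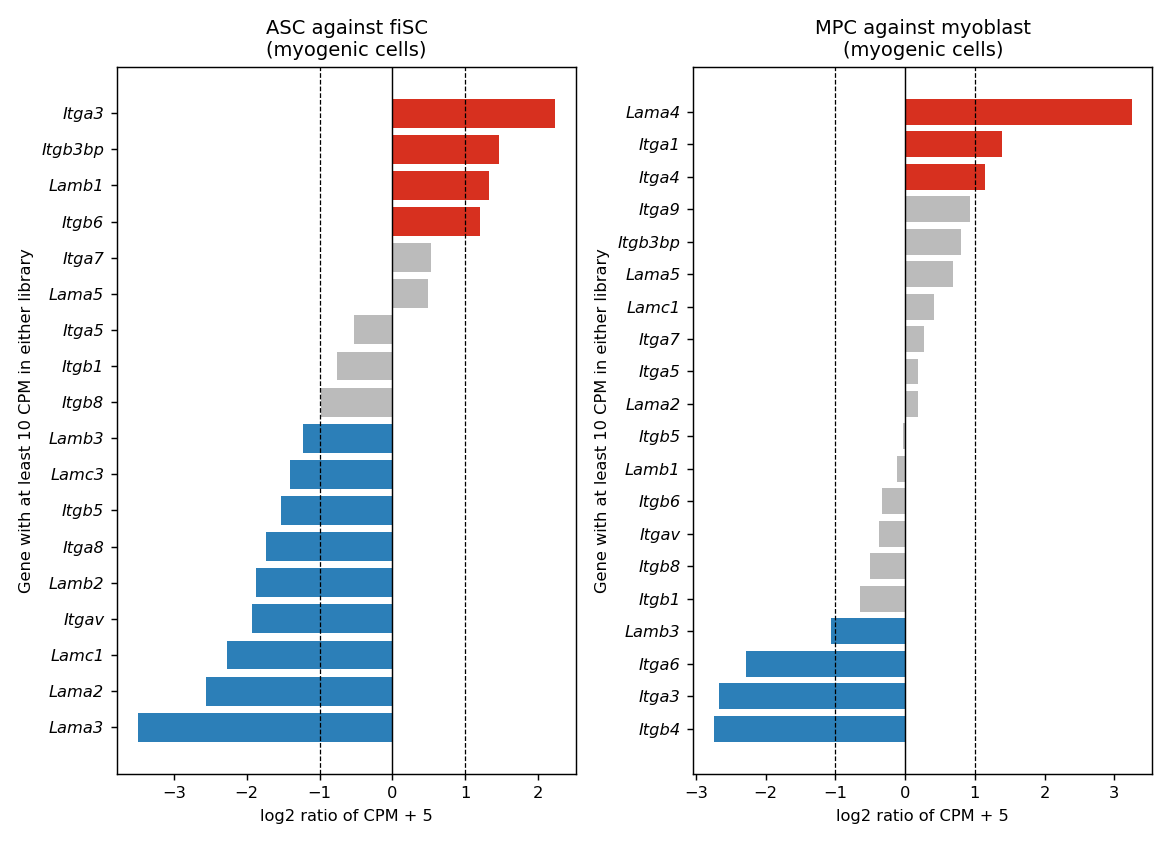
Log2 ratio of CPM + 5 for measured members in myogenic cells, for ASC against fiSC on the left and MPC against myoblast on the right. Red bars are called higher, blue bars lower and grey bars neither, and dashed lines mark 2-fold; Itga3, Itgb6, Lamb1 and Itgb3bp are the higher bars on the left, and Itga1, Itga4 and Lama4 those on the right.

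Set against fiSC, 22 members were measured for myoblasts and 23 for MPC. These comparisons and the one of ASC share the fiSC library, so a shift in fiSC enters each of them. In myoblasts 9 members were higher and 7 lower, against 29.1% of all genes higher and 17.5% lower, and in MPC 10 were higher and 7 lower, against 28.7% higher and 16.7% lower. The median log2 ratio of all genes was 0.34 in both, so levels in the cultures are read against that shift, and the members' median was 0.19 for myoblasts and −0.20 for MPC. With median-of-ratios scaling, which moves the all-gene median to −0.06 and −0.09, the split was 7 higher and 8 lower in myoblasts and 6 higher and 9 lower in MPC. All-gene shares were then 20.8% higher and 24.2% lower in myoblasts, and 19.1% and 24.3% in MPC. With TMM scaling the split was 8 higher and 7 lower in both, against 24.9% and 20.5% of all genes in myoblasts. In MPC the TMM shares were 23.7% and 20.1%. No fiSC cluster was differentiation-like, so progenitor-like cells were also compared alone. In myoblasts 7 of 21 members were then higher and 7 lower (median 0.09, all genes 0.34). In MPC 10 of 23 were higher and 8 lower (median 0.07, all genes 0.37). Of all genes 46.3% and 45.6% were called in either direction. By direction, 2761 of 9520 genes were higher and 1651 lower in myoblasts, and 2789 of 9562 were higher and 1573 lower in MPC. Itga4 and Itga7 were no longer called in myoblasts, nor Itgb6 in MPC, where Itgb8 (higher) and Lamb3 (lower) were added.

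The integrin and laminin genes had medians of opposite sign when all myogenic cells of either culture were set against fiSC. Of 12 measured integrin genes 7 were higher and 2 lower in myoblasts (median log2 ratio 1.13), and 6 were higher and 2 lower in MPC (0.88). Of the laminin genes 1 of 9 was higher and 5 were lower in myoblasts (−1.06), and 3 of 10 were higher and 5 lower in MPC (−0.99). Lama3, Lamb2, Lamc1 and Lamc3 were among the lower laminin genes in either culture. Myoblasts had Lamb1 as their higher laminin gene, and MPC had Lama4, Lama5 (2.83-fold) and Lamb1. The Lama5 call ended under 3 of 15 alternatives, both scalings among them, with a log2 ratio down to 0.83.

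Genes that act beside the members were counted by the same rule in 4 lists. Over all genes, 6.46% were higher and 7.42% lower in MPC against myoblasts, and 24.2% and 23.6% in ASC against fiSC. Against fiSC the shares were 29.1% and 17.5% in myoblasts, and 28.7% and 16.7% in MPC. Among basement membrane components other than laminins, 8 of 9 measured genes were lower in ASC than in fiSC (median log2 ratio −1.58). Col4a1, a chain of the collagen network to which laminin is linked, had 2.50 CPM in ASC and 476 CPM in fiSC, 191-fold lower (171 to 214), and Col4a2 had 2.32 CPM in ASC and 164 CPM in fiSC. In MPC against myoblasts 1 of 10 was higher and 1 lower. Col15a1, a collagen of the muscle basement membrane zone, had 224 CPM in MPC and 0.154 CPM in myoblasts, and the netrin Ntn4, which binds laminin, had 15.9 CPM in MPC and 126 CPM in myoblasts. Progenitor-like cells alone gave 4 of 10 higher and 1 lower in MPC against myoblasts (median log2 ratio 0.81). Of all genes 7.64% were higher and 8.51% lower in that comparison. Against fiSC, in all myogenic cells, 3 of 10 were higher and 2 lower in myoblasts, and 5 of 10 were higher and 1 lower in MPC.

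Laminin receptors that are not integrins were few enough to give by name. Dag1, which encodes dystroglycan, had 336 CPM in MPC and 101 CPM in myoblasts, and 134 CPM in ASC and 418 CPM in fiSC. Bcam, a receptor for laminins that contain the Lama5 chain, had 82.7 CPM in MPC, 10.5 CPM in myoblasts and 6.25 CPM in fiSC. Sdc4, a syndecan of quiescent and activated satellite cells, had 128 CPM in MPC, 268 in myoblasts, 231 in ASC and 2893 in fiSC. By the rule 2 of 5 list members were higher and 1 lower in MPC against myoblasts, 2 of 4 higher and 2 lower in ASC against fiSC, 1 of 5 higher and 2 lower in myoblasts against fiSC, and 3 of 5 higher and 1 lower in MPC against fiSC.

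Adaptors that tie integrins to actin were lower in MPC than in myoblasts for 11 of 27 measured genes and higher for none (median log2 ratio −0.63). Zyx, a focal adhesion protein, had 137 CPM in MPC and 453 CPM in myoblasts, and Actn1, an actin crosslinker, had 82.4 CPM in MPC and 272 CPM in myoblasts, each 3.30-fold lower. In myoblasts against fiSC 15 of 27 were higher and 1 lower, in MPC against fiSC 6 of 23 higher and 1 lower, and in ASC against fiSC 6 of 24 higher and 3 lower. The counts of higher adaptors in MPC and ASC lay near the all-gene shares of 28.7% and 24.2%. The tensin Tns3 was higher in all 3 comparisons with fiSC, at 64.8 CPM in MPC, 101 in myoblasts, 53.4 in ASC and 2.05 in fiSC. Fermt2, a kindlin that activates integrins, was the lower adaptor in both cultures, with 145 CPM in MPC, 100 CPM in myoblasts and 301 CPM in fiSC.

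Integrin ligands other than laminins, TGF-beta genes and their latency proteins among them, were lower in MPC than in myoblasts for 9 of 12 and higher for 2 (median log2 ratio −1.37). In progenitor-like cells alone 6 of 12 were lower and 2 higher (median −1.10), against 8.51% of all genes lower and 7.64% higher. Over all myogenic cells Spp1, which encodes osteopontin, had 109 CPM in MPC, 7207 in myoblasts, 671 in ASC and 2.73 in fiSC. Within the ASC library Spp1 was called lower in myogenic than in macrophage-like cells, and the part of macrophage RNA in its ASC level was not tested. Tgfb2, a TGF-beta with a latent form, had 207 CPM in MPC, 51.2 in myoblasts, 15.6 in ASC and 184 in fiSC, so MPC and fiSC were the high libraries. In ASC against fiSC 2 of 14 were higher and 7 lower, in myoblasts against fiSC 6 of 14 higher and 6 lower, and in MPC against fiSC 4 of 14 higher and 5 lower. Ltbp1, which holds latent TGF-beta in the matrix, had 24.2 CPM in MPC, 113 in ASC and 986 in fiSC.

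Within each culture, clusters in which Myog, the gene of the differentiation factor myogenin, exceeded Pax7 were called differentiation-like, and the other myogenic clusters progenitor-like. MPC held 2433 differentiation-like and 4750 progenitor-like cells, and myoblasts 322 differentiation-like and 1734 progenitor-like cells. Neither Myog nor Pax7 is a member, and members were left out of the clustering, although genes that vary with them were not. In MPC 18 members were measured, of which 3 were higher and 7 lower in differentiation-like cells, against 6.82% of all genes higher and 11.4% lower. In myoblasts 20 were measured, with 5 higher and 4 lower, against 8.44% higher and 16.8% lower. The classes are clusters of these cells, so the counts are a description. All-gene median log2 ratios were −0.17 in MPC and −0.30 in myoblasts, and members' medians were −0.39 in MPC and 0.07 in myoblasts. In myoblasts the split was 7 higher and 3 lower under both TMM and median-of-ratios scaling. All-gene shares there were 11.1% higher and 11.4% lower with TMM, and 12.3% and 10.1% with median of ratios.

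Itga4 and Itgb6 were higher and Lamb1, Itgav and Itgb8 lower in differentiation-like cells of both cultures. Itga4 had 119 CPM in differentiation-like and 29.5 CPM in progenitor-like MPC, 4.03-fold higher (3.82 to 4.25). The same gene had 126 CPM in differentiation-like and 5.57 CPM in progenitor-like myoblasts, 22.6-fold higher (19.6 to 26.1). Itgb6 had 121 CPM in differentiation-like and 10.9 CPM in progenitor-like MPC (11.1-fold higher, 10.3 to 12.1), and 221 CPM in differentiation-like and 35.3 CPM in progenitor-like myoblasts (6.25-fold higher, 5.84 to 6.69). After each cell was thinned to 2000 UMIs, Itgb6 was detected in 16.8% of differentiation-like and 1.57% of progenitor-like MPC, and in 37.4% of differentiation-like and 5.94% of progenitor-like myoblasts. Before thinning the shares were 49.9% of differentiation-like and 7.22% of progenitor-like MPC, and 89.1% of differentiation-like and 33.4% of progenitor-like myoblasts. Median depths were 14237 UMIs in differentiation-like and 12215 UMIs in progenitor-like MPC, and 23585 UMIs in differentiation-like and 24203.5 UMIs in progenitor-like myoblasts.

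Lamb1 had 27.1 CPM in differentiation-like and 195 CPM in progenitor-like MPC (7.19-fold lower, 6.74 to 7.67), and 22.8 CPM in differentiation-like and 170 CPM in progenitor-like myoblasts (7.45-fold lower, 6.45 to 8.65). Itgb8 had 1.73 CPM in differentiation-like and 30.6 CPM in progenitor-like MPC, and 9.78 CPM in differentiation-like and 34.8 CPM in progenitor-like myoblasts. Itgav had 22.7 CPM in differentiation-like and 61.1 CPM in progenitor-like MPC, and 30.2 CPM in differentiation-like and 69.5 CPM in progenitor-like myoblasts. The Itgav call in myoblasts ended under 4 of 12 alternatives, both scalings among them.

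Other members were called in 1 culture only, and whether the cultures differ was not tested. In MPC, Lamb3 was higher in differentiation-like cells, with 20.3 CPM, against 2.65 CPM in progenitor-like cells. Itga1 was lower, with 1.71 CPM in differentiation-like and 23.2 CPM in progenitor-like MPC. Lama4 had 3.98 CPM in differentiation-like and 68.4 CPM in progenitor-like MPC, Lama2 had 210 CPM in differentiation-like and 545 CPM in progenitor-like MPC, and Lamc1 had 34.7 CPM in differentiation-like and 75.5 CPM in progenitor-like MPC. Lamb1 apart, 3 laminin genes were thus lower in differentiation-like MPC. The Lama2 call in MPC ended when doublets were kept, and that of Lamc1 under 7 of 13 alternatives. In myoblasts, Itga2b, the platelet fibrinogen receptor subunit, had 11.6 CPM in differentiation-like and 2.36 CPM in progenitor-like cells. Itgb4 and Lamb2 were also higher, Itgb4 with 75.0 CPM in differentiation-like and 33.2 CPM in progenitor-like myoblasts, and Lamb2 with 21.1 CPM in differentiation-like and 7.26 CPM in progenitor-like myoblasts. The Lamb2 call ended under 3 of 12 alternatives. Lamb2 was 6.11 and 31.5 CPM in the 2 differentiation-like myoblast clusters, against 5.22 to 10.2 CPM in the 4 largest progenitor-like ones. Itga3 was lower, with 11.4 CPM in differentiation-like and 39.7 CPM in progenitor-like myoblasts. Itga7 was not called in either culture, at 161 CPM in differentiation-like and 127 CPM in progenitor-like MPC, and at 189 CPM in differentiation-like and 99.9 CPM in progenitor-like myoblasts.

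**Figure D3:**
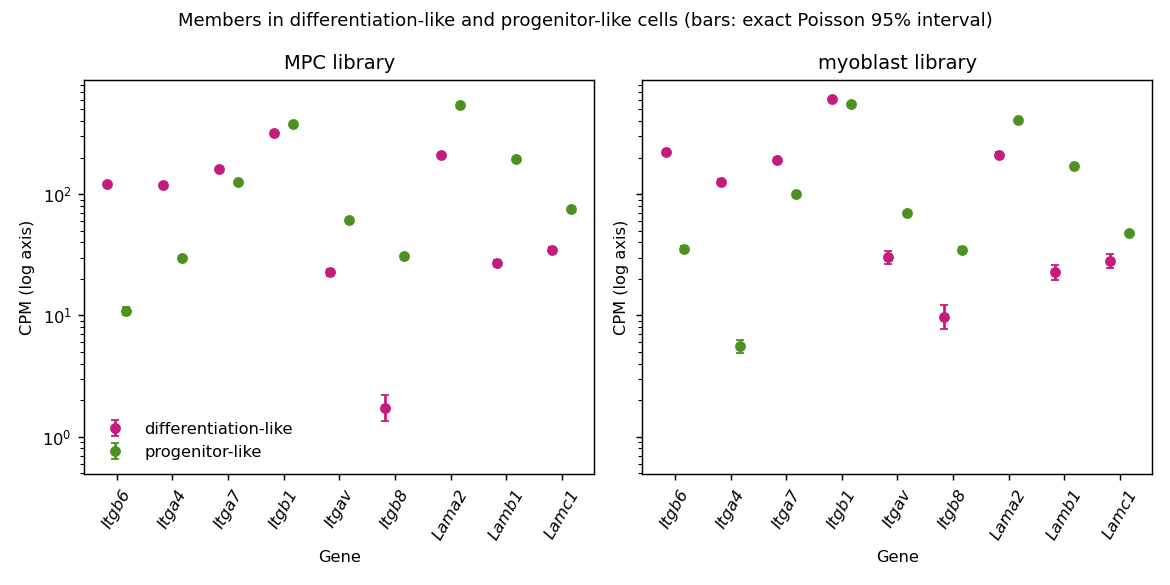
Levels of 9 members in differentiation-like and progenitor-like cells of MPC (left panel) and myoblasts (right panel), in CPM on a log axis with exact Poisson 95% bars for counting error. Itga4 and Itgb6 lie higher and Lamb1, Itgav and Itgb8 lower in the differentiation-like cells of both cultures.

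Of the 5 genes called in both cultures, the promoters of 3 are shown as examples, Itga4 and Itgb6 for the higher and Lamb1 for the lower genes. The sequences are RefSeq's on mouse build GRCm38.p6 and run from 250 bases before to 50 bases after an annotated start, on the strand of the gene. Itga4 lies at chr2:79255176-79255475 on the plus strand, Itgb6 at chr2:60722554-60722853 (start 1) and chr2:60673644-60673943 (start 2) on the minus strand, and Lamb1 at chr12:31265043-31265342 on the plus strand. Capitals mark CAGCTG and CACCTG, E-box letters of the kind that myogenic factors such as MyoD and myogenin are known to bind.
Itga4: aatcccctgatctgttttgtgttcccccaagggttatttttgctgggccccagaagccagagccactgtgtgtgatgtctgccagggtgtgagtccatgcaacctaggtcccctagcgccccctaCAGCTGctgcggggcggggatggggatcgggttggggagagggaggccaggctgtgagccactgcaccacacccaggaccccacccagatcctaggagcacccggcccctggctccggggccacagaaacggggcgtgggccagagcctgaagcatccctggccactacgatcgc
Itgb6 start 1: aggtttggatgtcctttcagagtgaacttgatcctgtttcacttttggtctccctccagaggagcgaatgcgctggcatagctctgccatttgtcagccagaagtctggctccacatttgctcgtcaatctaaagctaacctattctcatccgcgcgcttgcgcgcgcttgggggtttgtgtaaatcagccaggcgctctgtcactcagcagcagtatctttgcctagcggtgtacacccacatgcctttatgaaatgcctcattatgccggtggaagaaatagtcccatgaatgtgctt
Itgb6 start 2: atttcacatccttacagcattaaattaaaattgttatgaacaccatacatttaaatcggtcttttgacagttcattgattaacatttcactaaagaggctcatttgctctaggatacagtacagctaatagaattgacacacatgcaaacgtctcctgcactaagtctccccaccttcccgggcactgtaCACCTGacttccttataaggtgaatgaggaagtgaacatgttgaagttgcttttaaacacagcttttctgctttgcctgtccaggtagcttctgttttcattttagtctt
Lamb1: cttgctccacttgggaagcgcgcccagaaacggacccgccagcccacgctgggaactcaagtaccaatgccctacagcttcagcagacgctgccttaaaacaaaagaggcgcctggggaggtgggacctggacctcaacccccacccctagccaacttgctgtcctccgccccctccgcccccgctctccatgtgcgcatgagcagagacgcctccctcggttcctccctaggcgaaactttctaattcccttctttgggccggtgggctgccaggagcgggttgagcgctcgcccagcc

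Both strands were searched for CAGCTG, which is its own reverse complement, and for CACCTG or its reverse complement CAGGTG. The Itga4 promoter held 1 CAGCTG, the second Itgb6 start held 1 CACCTG, and the Lamb1 promoter and first Itgb6 start held neither motif. Of the others called in both cultures, the Itgav promoter held neither motif and the Itgb8 promoter held 1 CACCTG or CAGGTG. Over all 32851 promoters of this length 16.3% held CAGCTG and 20.2% held CACCTG or CAGGTG. Of the 25 members with a listed promoter, 9 held CAGCTG and 8 held CACCTG or CAGGTG at any of their starts. These counts are per gene, and some genes have 2 starts, whereas the shares over all promoters are per promoter. A match is a description of the letters and not a site of binding.

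The companion lists gave counts for the same classes. The all-gene shares beside them were 6.82% higher and 11.4% lower in MPC, and 8.44% higher and 16.8% lower in myoblasts. Basement membrane components were lower in differentiation-like cells for 9 of 10 measured genes in MPC (median log2 ratio −1.92) and for 5 of 9 in myoblasts (−1.32), and none was higher. Nid1, which encodes the nidogen that links laminin to collagen, had 8.19 CPM in differentiation-like and 84.5 CPM in progenitor-like MPC, and 6.32 CPM in differentiation-like and 77.4 CPM in progenitor-like myoblasts. Adaptors were higher for 5 and lower for 3 of 22 genes in MPC, and higher for 3 and lower for 9 of 27 in myoblasts. Itgb1bp2, which encodes the muscle protein melusin, had 101 CPM in differentiation-like and 8.24 CPM in progenitor-like MPC, and 175 CPM in differentiation-like and 3.09 CPM in progenitor-like myoblasts. Of the ligand list 2 of 11 were higher and 6 lower in MPC, and 2 of 12 higher and 8 lower in myoblasts. Tgfb2 had 222 CPM in differentiation-like and 18.4 CPM in progenitor-like myoblasts. Non-integrin laminin receptors were lower for 1 of 5 genes in MPC, and higher for 2 and lower for 2 of 5 in myoblasts.

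Levels also varied among the myogenic clusters of 1 library. In the ASC myogenic clusters, Lama2 was 500 CPM in 1 cluster of 265 cells and between 20.3 and 84.0 CPM in the other 4. That cluster had Pax7 at 387 CPM, the highest of the 5 ASC myogenic clusters, as were its Lamc1 and Itga7, each 137 CPM. Lama2 in the 4 fiSC myogenic clusters was between 351 and 633 CPM, and Lamc1 there between 200 and 373 CPM, so the cluster overlaps fiSC for Lama2 and not for Lamc1. Lama3 in ASC myogenic clusters was at most 2.81 CPM, against 40.1 to 87.0 CPM in fiSC myogenic clusters.

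In the cultures, the clusters of a class lay closer for some members than for others. Progenitor-like clusters had Lama2 between 534 and 552 CPM in MPC and between 265 and 664 CPM in myoblasts, and Itga6 between 35.6 and 42.6 CPM in MPC and between 119 and 390 CPM in myoblasts. The Itga6 ranges did not overlap. Among differentiation-like MPC, Itgb6 had 66.3 CPM in the cluster of 1428 cells and 200 CPM in that of 787 cells, and 23.8 and 10.2 CPM in 2 clusters of 114 and 104 cells with median depths of 1615 and 2684.5 UMIs. Clusters of 1 library share their source and are not replicates.

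**Figure D4:**
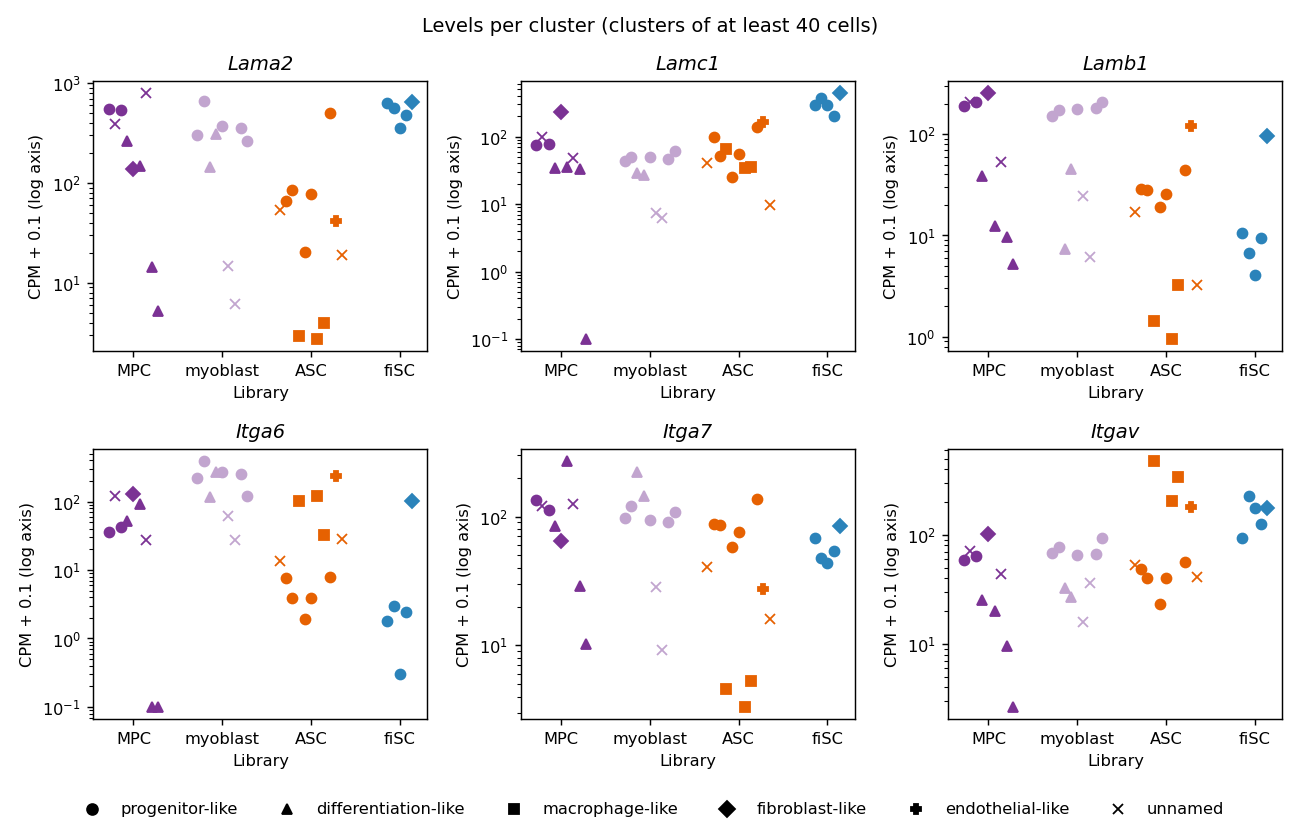
Levels of Lama2, Lamc1, Lamb1, Itga6, Itga7 and Itgav in each cluster of at least 40 cells, in CPM on a log axis, by library; marker shape gives the class of the cluster. The ASC progenitor-like cluster with Lama2 at 500 CPM lies among the fiSC clusters and above the other 4 ASC myogenic clusters.

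Within the ASC library, myogenic cells were set against the macrophage-like cells sorted with them, a contrast inside 1 library that shares its preparation. Of 20 measured members 6 were higher and 11 lower in the myogenic cells, against 30.8% of all genes higher and 20.5% lower. The members' median log2 ratio was −1.79 and that of all genes 0.35, and with TMM and median-of-ratios scaling, which bring the all-gene median to −0.17 and −0.25, the split was 6 higher and 12 lower. All-gene shares were then 20.3% higher and 29.1% lower with TMM, and 18.8% and 30.7% with median of ratios. Without rescaling, all 3 called laminin genes were higher, of 4 measured, and 11 of 15 integrin genes were lower and 3 higher. Median depths were 48050.5 UMIs in the myogenic and 15885 UMIs in the macrophage-like cells.

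The higher members were 3 integrin and 3 laminin genes. Itga7 had 79.5 CPM in myogenic and 3.96 CPM in macrophage-like cells (20.1-fold, 17.5 to 23.2), and Lama2 had 84.1 CPM in myogenic and 2.82 CPM in macrophage-like cells (29.8-fold, 25.3 to 35.5). Itga3 had 24.5 CPM in myogenic and 1.42 CPM in macrophage-like cells, and Itgb6 had 13.4 CPM in myogenic and 0.879 CPM in macrophage-like cells. Lama5 had 17.5 CPM in myogenic and 0.659 CPM in macrophage-like cells, and Lamb1 had 26.2 CPM in myogenic and 1.22 CPM in macrophage-like cells. The macrophage-like levels of these 6 genes were 3.35% to 6.54% of the myogenic levels. For comparison, 8 satellite cell and myoblast markers stood in the macrophage-like cells at 2.98% to 5.72% of their myogenic level, and how much of either is free RNA was not tested.

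The lower members included the leukocyte integrins. Itgam, the alpha subunit of a complement receptor of macrophages, had 0.984 CPM in myogenic and 216 CPM in macrophage-like cells (219-fold lower, 184 to 264), and its beta partner Itgb2 had 1.35 CPM in myogenic and 202 CPM in macrophage-like cells (150-fold lower, 129 to 175). Itgal and Itgax, 2 further alpha partners of Itgb2, had 0.205 and 0.165 CPM in myogenic cells, against 16.6 and 15.1 CPM in macrophage-like cells. Itgb7, a partner of Itga4, had 0.976 CPM in myogenic and 28.9 CPM in macrophage-like cells. Itga4 had 0.606 CPM in myogenic and 77.9 CPM in macrophage-like cells, and Itga9 had 1.67 CPM in myogenic and 125 CPM in macrophage-like cells. For Itgam, Itgb2 and Itga4 the myogenic level was 0.456%, 0.667% and 0.778% of the macrophage-like one, within the 0.400% to 0.921% of the macrophage markers other than Lgals3, whose share was 12.2%. The other 4 of these genes lay above that range, Itgax at 1.095%, Itgal at 1.24%, Itga9 at 1.33% and Itgb7 at 3.37%.

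Genes of the RGD receptors were also lower in myogenic cells. Itgav had 38.8 CPM in myogenic and 345 CPM in macrophage-like cells (8.91-fold lower, 8.63 to 9.20), Itgb5 had 4.51 CPM in myogenic and 218 CPM in macrophage-like cells (48.3-fold lower, 44.4 to 52.7), and Itga5 had 24.1 CPM in myogenic and 84.2 CPM in macrophage-like cells (3.49-fold lower, 3.33 to 3.66). Itga6 had 4.30 CPM in myogenic and 106 CPM in macrophage-like cells (24.8-fold lower, 22.7 to 27.1). The myogenic levels were 11.2% of the macrophage-like ones for Itgav, 28.6% for Itga5, 4.04% for Itga6 and 2.07% for Itgb5, all above the 0.921% bound of the macrophage markers other than Lgals3. Itgb1 did not differ by the rule, at 305 CPM in myogenic and 309 CPM in macrophage-like cells (ratio 0.988, 0.969 to 1.01). Lamc1 was the laminin gene with a macrophage-like level near the myogenic one, 60.2 CPM in myogenic and 50.02 CPM in macrophage-like cells (1.20-fold, 1.15 to 1.26).

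Shares of cells with a UMI, after thinning to 2000 UMIs, were taken over 2646 myogenic and 3012 macrophage-like cells. Itgam was found in 0.227% of myogenic and 30.8% of macrophage-like cells, and in 3.84% of myogenic and 83.03% of macrophage-like cells before thinning. Itga4 was found in 0 of 2646 thinned myogenic cells, which allows a share of up to 0.113% at that depth, and in 13.7% of macrophage-like cells. Before thinning it was found in 2.26% of myogenic and 54.5% of macrophage-like cells. Itgav was found in 8.66% of myogenic and 40.9% of macrophage-like cells, and Itgb1 in 46.6% of myogenic and 43.4% of macrophage-like cells. Itga7 was found in 15.7% of myogenic and 0.896% of macrophage-like cells, and Lama2 in 16.3% of myogenic and 0.531% of macrophage-like cells. The macrophage gene Lyz2 was found in 16.0% of thinned myogenic cells, against 99.1% of macrophage-like cells, and how much of that was free RNA was not tested.

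**Figure D5:**
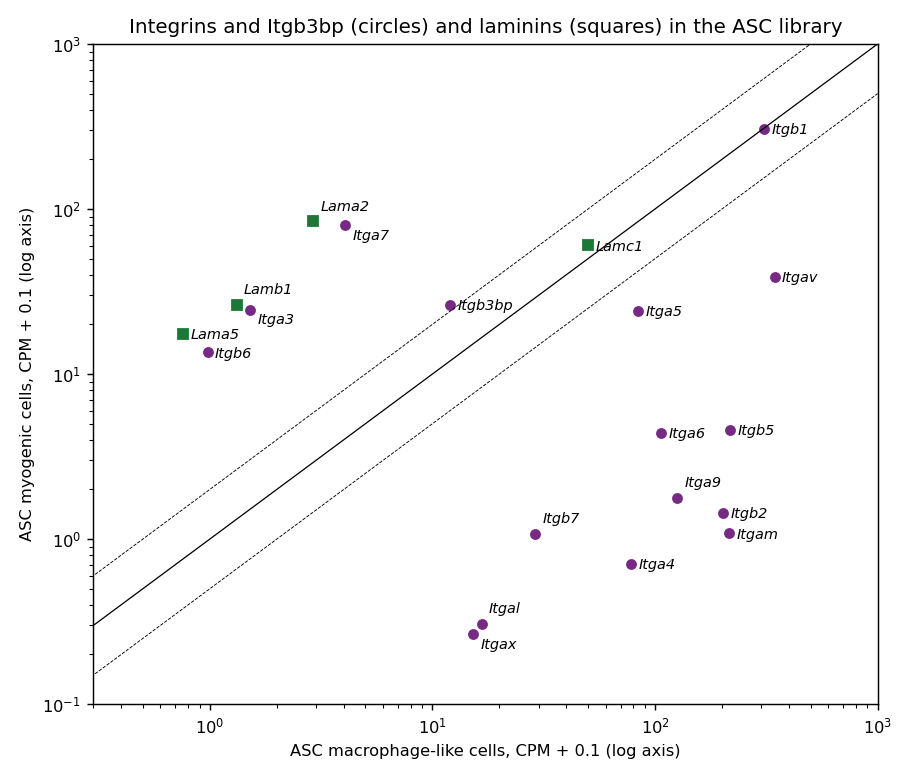
Each point is a member that reached 10 CPM in either class, with its level in ASC macrophage-like cells on the x axis and in ASC myogenic cells on the y axis, both as CPM + 0.1 on log axes. The solid line marks equal levels and the dashed lines 2-fold of the plotted values; Itgb1 and Lamc1 lie near the solid line, Itgam and Itgb2 far to the right of it, and Lama2 and Itga7 above it.

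Companion genes split between the cell classes, beside all-gene shares of 30.8% higher and 20.5% lower in myogenic cells. All 5 measured basement membrane genes were higher in myogenic cells, among them Sparc, a collagen-binding matrix protein, with 129 CPM in myogenic and 5.32 CPM in macrophage-like cells. Of 27 adaptors 8 were higher and 8 lower. The kindlins divided, with Fermt2 at 107 CPM in myogenic and 4.36 CPM in macrophage-like cells, and Fermt3, the kindlin of blood cells, at 2.91 CPM in myogenic and 147 CPM in macrophage-like cells. Of 4 non-integrin laminin receptors 2 were higher, Dag1 with 134 CPM in myogenic and 23.9 CPM in macrophage-like cells. Of 13 ligands 6 were higher and 7 lower. Nrros, which holds latent TGF-beta on macrophages, had 0.913 CPM in myogenic and 106 CPM in macrophage-like cells, and Thbs1, a thrombospondin that binds several integrins, had 55.2 CPM in myogenic and 1596 CPM in macrophage-like cells.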

How the data were processed

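Gene expression of single cells was measured with the 10x Genomics 3′ v3.1 chemistry in 4 libraries. The deposited files hold the authors' UMI counts per gene and barcode. STAR 2.7.10b and build GRCm39 are named in the submitters' processing notes; counting options, strand use and any earlier cell filter are not given in the sources used here. From 11847 MPC, 2993 myoblast, 10818 ASC and 2705 fiSC barcodes, barcodes below 1000 UMIs or 500 detected genes, or above 10% mitochondrial counts, were dropped, and doublets marked by Scrublet were removed (799, 47, 297 and 59). In MPC, myoblasts and fiSC a score quantile stood in for the automatic threshold. Cells were clustered per library with scanpy 1.11.5 (2000 variable genes, 30 components, 15 neighbours, Leiden resolution 0.5), without members or naming markers among the variable genes. Clusters took a name from at least 3 markers at 20 CPM, with details of naming set after the data were seen. A cluster stayed unnamed where its 10 leading genes held more markers of another class. Myogenic clusters were then summed to CPM. The summed satellite cell and myoblast list was 2156.2 CPM in MPC, 3083.4 in myoblasts, 894.72 in ASC and 3482.3 in fiSC myogenic cells, and 32.61 CPM in ASC macrophage-like cells. The macrophage list of 14 genes was 927.19 CPM in ASC myogenic and 41902 CPM in ASC macrophage-like cells, 151.21 in MPC, 417.49 in myoblasts and 32.402 in fiSC. Lgals3 alone gave 725 CPM of the sum in ASC myogenic cells, 141 in MPC, 411 in myoblasts and 22.6 in fiSC, and C1qa was at 0 in the last 3 of these. The fibroblast list was 364.4, 209.97, 145.35 and 699.72 CPM in MPC, myoblast, ASC and fiSC myogenic cells, and the part of these cells in any result was not tested.

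Depth of the retained cells was 135956672, 55139531, 179085373 and 20031950 UMIs in MPC, myoblasts, ASC and fiSC. The size rule used a pseudocount of 5 CPM and a minimum of 10 CPM. Exact Poisson, conditional binomial and Clopper-Pearson 95% intervals (scipy 1.17.1) cover counting error only. TMM factors came from edgeR 4.0.16, used for scaling alone, with R 4.3.3. Members at 10 CPM in myogenic or ASC macrophage-like cells are named, except 1 that is not reported here and enters only the counts, sums and medians. Companion genes come from the 2 highest and 2 lowest of each list past the rule, with at least 50 CPM on the higher side, and not all of these are printed. Members, lists and rules were chosen with earlier results of these data known. The scripts were checked on simulated data.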

Additional observations from a re-analysis of the deposited data

How the results depend on the processing

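Of 190 counts of members recomputed under the alternatives, 176 stayed within 1.5 times the reported count. A minimum of 50 CPM removes members from the comparison, and the numbers still measured are not given here. All-gene shares at that minimum follow in brackets, higher before lower. It left 1 higher and 1 lower member in MPC against myoblasts (7.426% and 9.013%), and 0 and 4 in ASC against fiSC (26.998% and 33.27%). Against fiSC it left 4 and 3 in myoblasts (29.556% and 25.359%), and 4 and 3 in MPC (27.916% and 24.555%). In ASC myogenic against macrophage-like cells 2 were higher (31.432%). In differentiation-like against progenitor-like myoblasts 3 were higher and 2 lower (11.656% and 18.51%). With all retained cells, 8 members were higher in ASC than in fiSC, 2 of them among the 4 reported, and Itgb5 reversed to a log2 ratio of 1.23. With median-of-ratios scaling 6 were higher in MPC than in fiSC, against 19.123% of all genes. With doublets kept 4 were lower in differentiation-like MPC, against 5.499% of all genes, where the cause was not tested. Of 90 called member values, 32 kept their call under every alternative run and 58 lost it under at least 1. Of 1222 alternative values of these called members, 1116 kept the call, 105 ended it and 1 reversed. Counting MPC clusters 2 and 7 as progenitor-like was added after the data were seen.

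No paired analysis was possible because each group was 1 library and the labels give no replicate numbers. For the same reason no replicate could be left out. With 1 library per group the intervals describe counting only. The strict cell filter left 502 myoblasts. Low members such as Itga4 in fiSC, with 4 UMIs, limit a fold to its interval.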

Other observations

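Members were also read in cells outside the myogenic and macrophage-like classes. In the ASC library an endothelial-like cluster of 46 cells had Itgb1 at 1000.1 CPM, Itga6 at 239 CPM, Lama4 at 209 CPM and Itga1 at 151 CPM, against 305, 4.30, 0.779 and 0.646 CPM in ASC myogenic cells. Its median depth was 2402.5 UMIs. The 46 cells held all 9 endothelial markers at 20 CPM or more (summed 4085.6 CPM), but also 7 of 8 mural markers (2838.2 CPM, with Rgs5 among the leading genes) and 10 of 14 macrophage markers (4821.9 CPM). The part of each of these lists in the member levels was not tested.

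Fibroblast-like clusters carried members that their libraries' myogenic cells held at lower levels. The MPC one, of 413 cells, had Lama4 at 208 CPM, Lamc1 at 228 CPM, Itga1 at 50.9 CPM and Itgb3 at 50.7 CPM. In fiSC the fibroblast-like cluster of 57 cells had Itga6 at 101 CPM, Lamb1 at 94.95 CPM, Itga1 at 81.8 CPM and Lama4 at 75.8 CPM, whereas Lama3 was 8.08 CPM there, below each fiSC myogenic cluster. These 57 cells held 11 of 12 fibroblast markers at 20 CPM or more (summed 11883 CPM), beside 9 of 9 endothelial (942.44 CPM), 5 of 8 mural (1713.2 CPM), 2 of 6 tenocyte (734.36 CPM), 9 of 14 macrophage (791.93 CPM) and 10 of 10 satellite cell and myoblast markers (2243.5 CPM). The part of these lists in the fiSC values was not tested.

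Some clusters kept no name. In myoblasts a cluster of 34 cells led by Col1a2 and Fbln2 had Itgb1 at 2076.4 CPM, Itgav at 395 CPM and Itga5 at 312 CPM, with Lama2 at 65.8 CPM. In MPC a cluster of 1058 cells led by Cdkn2a had Lama2 at 790 CPM, above the 534 to 552 CPM of the progenitor-like clusters, with Lamb1 at 52.8 CPM and Lama4 at 3.41 CPM. Each of these values comes from 1 cluster of 1 library.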
